A study of Mus musculus with 12 samples.

Results

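Transcripts of 9 enzymes and enzyme subunits of the tricarboxylic acid (TCA) cycle were followed across cultures labelled as cardiomyocytes in which the repressor Hey1 or Hey2 could be switched on. The genes were taken by symbol from the deposited expression table, and all 9 (Cs, Idh3a, Idh3b, Idh3g, Ogdh, Suclg1, Sucla2, Fh1 and Mdh2) were found among its 23427 genes. Each had a value in every library. Per the labels the cells were cardiomyocytes differentiated in vitro, of the mouse embryonic stem cell line CM7/1, in a version with an inducible Hey1 gene and a version with an inducible Hey2 gene. For RNA sequencing there were 4 libraries, which were uninduced (control) Hey1-line cells, Hey1-line cells given 1000 ng/ml doxycycline for 48 h, uninduced Hey2-line cells, and Hey2-line cells given the same dose for the same time. Each group was 1 library, so no difference has a replicate check and no p-value is given. No RNA library came from cells with doxycycline and no inducible Hey gene, so an effect of the drug and an effect of induction cannot be told apart. The promoter that drives the transgene, and whether a line is a single clone, is information not given in the sources used here.

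The TCA cycle runs in the mitochondrial matrix. It oxidises the acetyl group of acetyl-CoA, which comes from pyruvate and from fatty acids, to carbon dioxide, and passes the electrons to the respiratory chain as NADH and reduced flavin. Heart muscle is rich in mitochondria and draws most of its ATP from this route. Pluripotent stem cells rely more on glycolysis and use citrate from the cycle for lipid synthesis and histone acetylation. Hey1 and Hey2 are basic helix-loop-helix transcriptional repressors that act downstream of Notch and bind E-box-like DNA sequences.

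The libraries held between 2296145 and 4182141 reads in listed genes, as recovered from the values. Hey1 stood at 0.735 and 8.59 RPKM (reads scaled by gene length and by library depth) in uninduced and induced Hey1-line cells, and Hey2 at 6.59 RPKM in induced Hey2-line cells, with no value listed in the uninduced ones. The labelled cell type was checked against 10 cardiomyocyte markers, among them Myh6, Tnnt2 and Nkx2-5. Their summed level was 13920 and 14780 RPKM without and with induction in the Hey1 line, but 916.7 and 964.8 RPKM in the Hey2-line libraries. Summed over 8 pluripotent cell markers the order was reversed, at 39.05 and 30.26 RPKM against 356.4 and 378.1 RPKM. All markers of both lists had a value in every library. The label thus holds less well for the Hey2-line libraries, which carried cardiomyocyte transcripts at a far lower level beside those of pluripotent cells.

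Hey proteins bind E-boxes, so the start regions of the 9 genes were read for such letters. RefSeq promoter windows (build GRCm38.p6, 250 bases before to 50 after a transcription start) were found for 8 of the 9 genes, all but Idh3a, with 13 windows in all because Ogdh has 6 starts. Both strands were searched for the E-box CACGTG, the related box CACGCG, the estrogen-related receptor core AAGGTCA, the ETS motif CCGGAAG bound by GABP, and the palindromic motif of NRF1 (named only). The windows shown are the 3 that hold an E-box or the related box and belong to different genes. They are written 5′ to 3′ on the strand of the gene, with every match of the 5 motifs in capitals.
Idh3g, chrX:73786848-73787147, minus strand: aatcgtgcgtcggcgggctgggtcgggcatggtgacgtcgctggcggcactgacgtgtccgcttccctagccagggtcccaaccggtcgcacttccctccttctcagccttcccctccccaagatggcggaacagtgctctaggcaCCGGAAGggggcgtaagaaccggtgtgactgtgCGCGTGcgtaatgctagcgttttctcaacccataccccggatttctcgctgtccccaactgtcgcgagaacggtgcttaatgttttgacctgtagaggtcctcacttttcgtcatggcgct
Suclg1, chr6:73248255-73248554, plus strand: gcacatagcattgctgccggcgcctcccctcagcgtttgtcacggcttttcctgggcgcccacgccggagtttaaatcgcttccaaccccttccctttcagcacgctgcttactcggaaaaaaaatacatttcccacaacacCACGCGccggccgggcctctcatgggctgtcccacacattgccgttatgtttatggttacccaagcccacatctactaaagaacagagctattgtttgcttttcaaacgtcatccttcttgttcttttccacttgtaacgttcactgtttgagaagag
Ogdh, chr11:6291920-6292219, plus strand: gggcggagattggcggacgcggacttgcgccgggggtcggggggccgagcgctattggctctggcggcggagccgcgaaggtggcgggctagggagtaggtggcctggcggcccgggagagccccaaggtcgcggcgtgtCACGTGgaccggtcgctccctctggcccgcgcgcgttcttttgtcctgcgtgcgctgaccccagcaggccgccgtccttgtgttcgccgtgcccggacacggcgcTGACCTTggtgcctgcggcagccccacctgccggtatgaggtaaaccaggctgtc
Idh3g holds CCGGAAG from position −104 and CACGCG, on the other strand, from position −71, counted from the start site. Suclg1 holds CACGCG from position −108. The Ogdh window holds CACGTG from position −110 and AAGGTCA, on the other strand, from position −5. None of these matches overlap each other. CACGTG was found in 1 of the 8 genes (Ogdh, in 3 of its 6 windows). That is 3 of the 13 windows, against 7.15% of all 32851 RefSeq windows. The Ogdh windows from 6292308 and from 6292329 overlap and hold the same match. CACGCG was found in 2 genes and 2 of the 13 windows, against 9.27% of all windows. AAGGTCA was found in 1 gene and 1 window, against 4.72%. CCGGAAG was found in 2 genes (Idh3b and Idh3g) and 2 windows, against 8.86%. The NRF1 motif was in none of the 8 genes and in 0.971% of windows. A match describes these letters and shows no binding.

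The cycle genes were among the abundant transcripts of every library. The lowest of the 9 lay at percentile 92.7 of listed genes in uninduced Hey1-line cells (Sucla2) and at percentile 84.1 in uninduced Hey2-line cells (Ogdh). In RPKM, which is scaled by gene length, the 9 genes spanned 32.6 to 193 in uninduced and 26.8 to 196 in induced Hey1-line cells. They spanned 16.1 to 67.8 in uninduced and 17.0 to 67.4 in induced Hey2-line cells. Their sum was 728.1, 714.4, 315.8 and 312.7 RPKM in the same order, so the lines differed far more than induced and uninduced cells of a line. Between 225 and 3347 reads stood behind each value. Intervals given below are 95% intervals of counting error only, from the recovered reads.

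**Figure D1:**
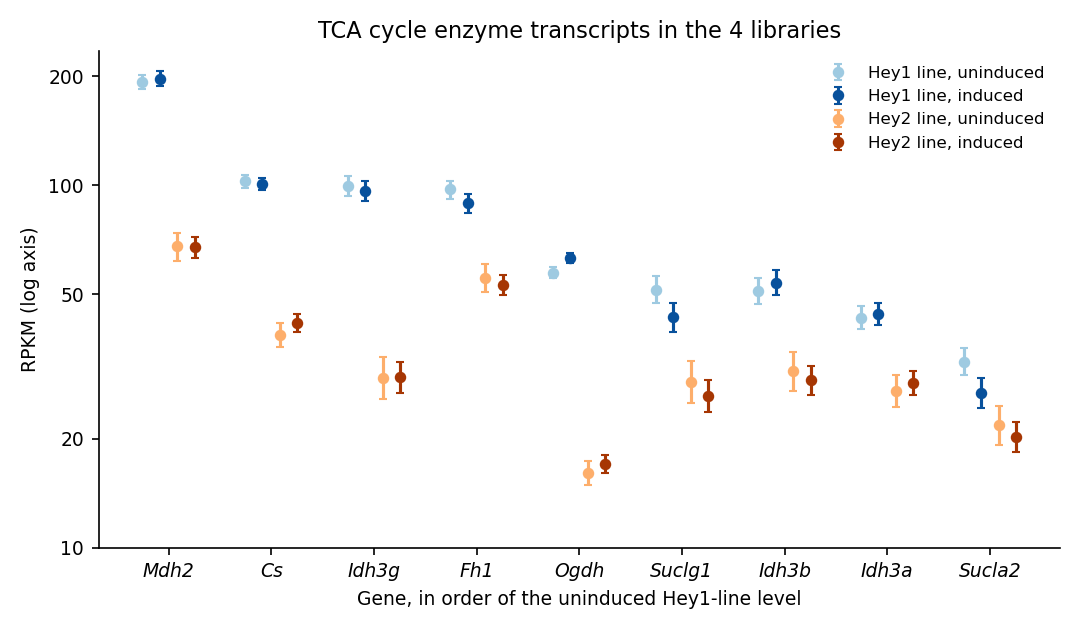
RPKM of the 9 TCA cycle genes (x axis) in the 4 libraries, on a log y axis, with 1 point per library and bars for the exact 95% Poisson interval of counting error. For every gene both Hey1-line points lie above both Hey2-line points, from Mdh2 (193 and 196 against 67.8 and 67.4 RPKM) to Sucla2 (32.6 and 26.8 against 21.8 and 20.2 RPKM).

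Citrate synthase, encoded by Cs, joins acetyl-CoA to oxaloacetate and so opens the cycle. Its RPKM was 103 in uninduced and 101 in induced Hey1-line cells, and 38.7 and 41.7 in uninduced and induced Hey2-line cells. The Hey1-line libraries were high and the Hey2-line libraries low, with no overlap. In the Hey1 line it was within counting error of no difference after induction, 1.02-fold lower (0.956 to 1.08). In the Hey2 line it was 1.08-fold higher (0.978 to 1.19), also within counting error. Between the lines it was 2.65-fold lower in the Hey2 line without induction (2.43 to 2.90) and 2.42-fold lower with it (2.26 to 2.60).

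NAD-dependent isocitrate dehydrogenase, a rate-controlling step of the cycle, is built from a catalytic alpha subunit (Idh3a), a beta subunit (Idh3b) and a gamma subunit that carries the response to allosteric activators (Idh3g). Idh3a stood at 43.1 and 44.1 RPKM in uninduced and induced Hey1-line cells and at 27.1 and 28.5 RPKM in the Hey2 line. Idh3b stood at 51.1 and 53.9 RPKM in the Hey1 line, against 30.7 and 29.0 RPKM in the Hey2 line. Idh3g stood at 99.3 and 96.7 RPKM in the Hey1 line, against 29.4 and 29.5 RPKM in the Hey2 line. All 3 subunit transcripts were high in both Hey1-line libraries and low in both Hey2-line libraries, and induction moved none of them beyond counting error. Idh3g had the wider gap, 3.38-fold lower in the uninduced Hey2 line (2.92 to 3.92), against 1.59-fold for Idh3a (1.4 to 1.80) and 1.67-fold for Idh3b (1.44 to 1.93). After induction these folds were 3.28 (2.92 to 3.69), 1.55 (1.4 to 1.71) and 1.86 (1.65 to 2.11).

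The subunit balance differed with the line, as a ratio within a library that does not depend on depth. Pairs of other genes were not examined as a background. For single genes the counting interval between lines left out 1 for 72.9% of all compared genes without and 77.3% with induction. A ratio that differs between lines, here or below, is therefore not read as particular to these genes. Idh3a stood at 0.434 of the Idh3g level in uninduced Hey1-line cells (0.395 to 0.478) and at 0.456 in induced ones (0.415 to 0.502). In the Hey2 line this ratio was 0.923 (0.780 to 1.09) and 0.967 (0.855 to 1.10), so the 2 transcripts could not be told apart there. The ratio was 2.13-fold higher in the Hey2 line without induction (1.76 to 2.57) and 2.12-fold higher with it (1.82 to 2.47). By contrast Idh3a over Idh3b differed between the uninduced lines only within counting error, 1.05-fold (0.867 to 1.27), and by 1.2-fold between the induced ones (1.03 to 1.41).

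Ogdh encodes the first, decarboxylating component of the alpha-ketoglutarate dehydrogenase complex, which also holds Dlst (the succinyltransferase core) and Dld (a dihydrolipoamide dehydrogenase shared with other complexes). Ogdh stood at 57.4 RPKM in uninduced and 63.0 RPKM in induced Hey1-line cells, and at 16.1 and 17.0 RPKM in uninduced and induced Hey2-line cells. Of the 9 genes it had the widest gap between lines, 3.56-fold lower in the uninduced (3.27 to 3.88) and 3.70-fold lower in the induced Hey2 line (3.46 to 3.95). These intervals overlapped those of Idh3g in both states. Ogdh was the lowest of the 9 in both Hey2-line libraries and the fifth in both Hey1-line libraries. After induction it was 1.10-fold higher in the Hey1 line (1.05 to 1.15) and 1.06-fold higher in the Hey2 line (0.962 to 1.16). Its ratio to Dlst was 1.06 and 1.10 without and with induction in the Hey1 line, against 0.487 and 0.550 in the Hey2 line. Dlst itself stood at 53.9, 57.5, 33.1 and 31.0 RPKM in the same order. Dld differed less, at 33.3, 27.3, 26.7 and 27.2 RPKM. Ogdhl, a related gene with a like product, went the other way, with 4.23 and 4.64 RPKM in the Hey1 line, against 13.5 and 12.6 RPKM in the Hey2 line. Ogdh was therefore 13.6 times Ogdhl in both Hey1-line libraries but only 1.2 (1.04 to 1.38) and 1.36 times (1.22 to 1.51) in those of the Hey2 line. Reads shared between Ogdh and Ogdhl would blur this, since the handling of such reads is not given in the sources used here.

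Succinyl-CoA synthetase makes a nucleoside triphosphate directly. Its alpha subunit (Suclg1) pairs either with the ADP-forming beta subunit (Sucla2) or with the GDP-dependent beta subunit (Suclg2). Suclg1 stood at 51.5 and 43.2 RPKM in uninduced and induced Hey1-line cells and at 28.7 and 26.2 RPKM in the Hey2 line. Sucla2 stood at 32.6 and 26.8 RPKM in the Hey1 line, against 21.8 and 20.2 RPKM in the Hey2 line. Both were high in the Hey1 line, low in the Hey2 line, and within each line the induced library was the lower. In the Hey1 line Suclg1 was 1.19-fold lower after induction (1.05 to 1.36) and Sucla2 1.22-fold lower (1.07 to 1.39), while in the Hey2 line both intervals held 1. The interval of Suclg1 held 1 under median ratio scaling, at 1.12-fold lower (0.986 to 1.27).

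Among the 9 genes Sucla2 differed least between lines, 1.5-fold lower in the uninduced Hey2 line (1.29 to 1.74) and 1.32-fold lower in the induced one (1.16 to 1.52). In both states its interval overlapped that of Idh3a, among others. Suclg1 was 1.79-fold (1.53 to 2.10) and 1.65-fold lower (1.43 to 1.89). The beta subunit of the other form behaved differently between lines. Suclg2 stood at 7.17 and 5.73 RPKM in the Hey1 line, against 13.6 and 14.8 RPKM in the Hey2 line. Suclg2 was thus 0.220 (0.179 to 0.269) and 0.214 (0.17 to 0.268) of Sucla2 in the Hey1-line libraries, and 0.624 (0.513 to 0.757) and 0.732 (0.635 to 0.845) in the Hey2-line libraries. The ratio was 2.84-fold higher in the Hey2 line without induction (2.16 to 3.73) and 3.42-fold higher with it (2.63 to 4.44).

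The last steps regenerate oxaloacetate. Fumarate hydratase (Fh1) stood at 97.4 and 89.2 RPKM in uninduced and induced Hey1-line cells and at 55.5 and 53.2 RPKM in the Hey2 line. Mitochondrial malate dehydrogenase (Mdh2) stood at 193 and 196 RPKM in the Hey1 line, against 67.8 and 67.4 RPKM in the Hey2 line, the highest of the 9 in every library. Neither gene overlapped between lines. Fh1 was 1.75-fold lower in the uninduced Hey2 line (1.58 to 1.95) and 1.68-fold lower in the induced one (1.54 to 1.84). For Mdh2 these folds were 2.85 (2.58 to 3.15) and 2.91 (2.69 to 3.16). After induction Fh1 was 1.09-fold lower in the Hey1 line with an interval that only just left out 1 (1.004 to 1.19), and it held 1 under each of the 3 other scalings. Mdh2 was 1.02-fold higher in the Hey1 line (0.954 to 1.09) and 1.01-fold lower in the Hey2 line (0.9 to 1.12).

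The order of the levels also shows where neighbours cannot be separated. In uninduced Hey1-line cells Mdh2 led, followed by Cs, Idh3g and Fh1, whose neighbours in that order differed only within counting error (1.03-fold and 1.02-fold). Ogdh came next, then Suclg1 and Idh3b, again inseparable (1.01-fold), then Idh3a and Sucla2. In induced Hey1-line cells the order was the same except that Suclg1 stood below Idh3b and Idh3a, and from Idh3a it could not be separated (1.02-fold). In uninduced Hey2-line cells Fh1 was second after Mdh2 and Cs followed it, then came Idh3b, Idh3g, Suclg1 and Idh3a with no neighbours separable, then Sucla2 and Ogdh. In induced Hey2-line cells the same 4 middle genes stood in the order Idh3g, Idh3b, Idh3a and Suclg1. Neighbours within this group were again inseparable, while Cs above it and Sucla2 below it were separable from it.

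**Figure D2:**
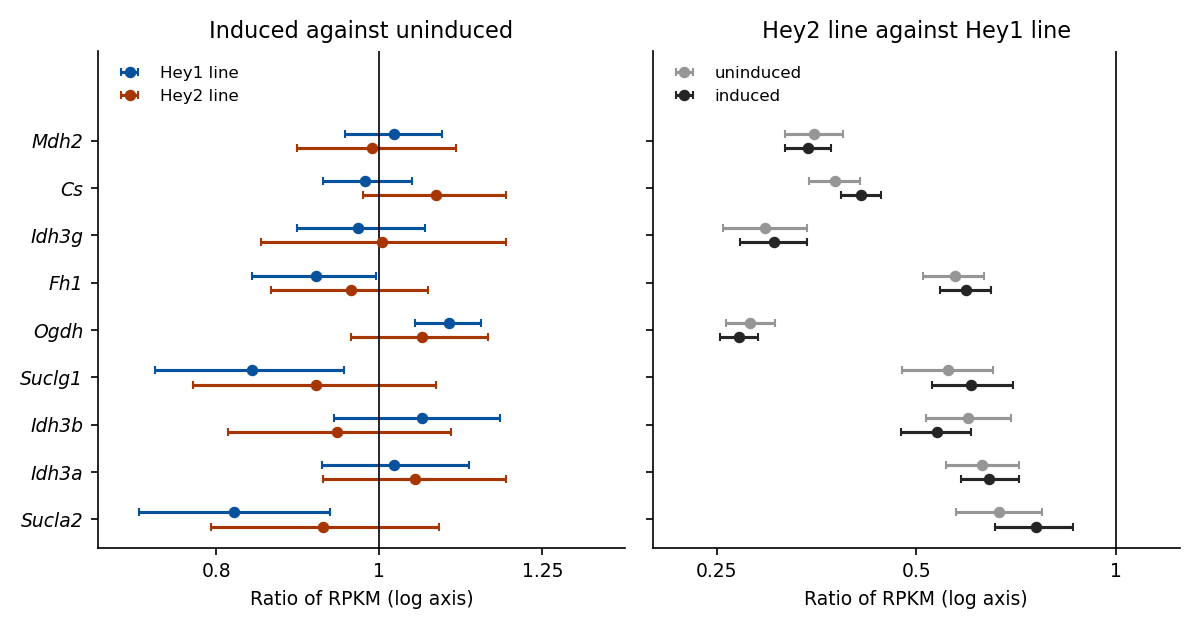
Ratios of RPKM on log x axes for the 9 genes, induced over uninduced in each line (left) and Hey2 line over Hey1 line in each state (right), with exact 95% intervals of counting error. On the left the points lie close to the line at 1, and 4 Hey1-line intervals leave it out. On the right all 18 intervals lie below 1, with Ogdh and Idh3g farthest from it.

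Hey1 induction was the first comparison, asking whether cycle enzyme transcripts differ when the repressor is present. None of the 9 genes reached 1.5-fold on the log2(RPKM + 1) scale, the size counted here in place of a test, and 2.47% of the 10991 compared genes did (0.455% higher and 2.01% lower). The median difference of the 9 was −0.02 on that scale, against −0.06 for all compared genes, with 4 higher and 5 lower and a range from −0.28 (Sucla2) to 0.13 (Ogdh). This median was 0.07, 0.04 and 0.02 under median ratio, upper quartile and without-top-10 scaling, so its sign depends on the scaling, and Cs and Idh3g changed side in all 3. The counting interval left out 1 for 4 of the 9 genes, Ogdh higher and Suclg1, Sucla2 and Fh1 lower, against 18.3% of all compared genes (4.88% above 1 and 13.5% below). That share was 36.2% among the 1694 compared genes with at least 225 reads in every library, the fewest behind any of the 9. Under median ratio scaling 3 of the 9 intervals lay above 1 (Idh3b, Ogdh and Mdh2) and 1 below (Sucla2). That scaling moves the interval of every gene in the same direction. The share of all compared genes was not counted under it, so no result about the 9 genes is read from this change. Of the 271 genes past 1.5-fold as deposited, 81.5% were lower, and under median ratio scaling 66.7% of the genes past that size were. Of the 10 cardiomyocyte markers 9 were higher after induction (median 0.09), with 6 intervals above 1 and 1 below. All 8 pluripotent cell markers (median −0.22, 2 intervals below 1) and all 4 proliferation markers (median −0.50, 3 intervals below 1) were lower. So were all 5 compared fibroblast markers (median −0.31, 3 intervals below 1). Among all compared genes 61.6% were lower. The part of these marker shifts in the cycle gene values was not tested.

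Induction of Hey2 in the Hey2 line was examined in the same way. None of the 9 genes reached 1.5-fold, where 1.24% of compared genes did (0.546% higher and 0.691% lower). The median difference of the 9 was −0.01 and that of all genes 0.00 to 2 decimals, with 4 higher and 5 lower and a range from −0.13 (Suclg1) to 0.11 (Cs). No member's counting interval left out 1, against 14.7% of all compared genes (8.04% above 1 and 6.63% below) and 29.4% of those with at least 225 reads. With these reads the intervals of the 9 folds reached at most 1.29-fold (Suclg1, lower), so larger differences between these 2 libraries lie outside counting error. Of the 10 cardiomyocyte markers 9 were higher (median 0.11, 2 intervals above 1). Of the 8 pluripotent cell markers 6 were (median 0.14, 3 intervals above 1 and 1 below). Among all compared genes 50.6% were lower. All 5 compared fibroblast markers were higher (median 0.37), each with an interval above 1, and the part of these shifts in the cycle gene values was not tested.

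The 2 inductions were set side by side for each gene. They share no library. The difference of responses, Hey2 minus Hey1, had a median of 0.04 over the 9 genes and 0.07 over all compared genes, and it ran from −0.16 (Idh3b) to 0.17 (Sucla2). The ratio of folds had a 95% counting interval that left out 1 for 0 of the 9, against 16.9% of all compared genes and 33.1% of those with at least 225 reads in every library. Among the 37 other genes around the cycle it left out 1 for 6, Dld, Mdh1, Pdha1, Pdk1, Pdk2 and Glud1, a share near that of all compared genes. These 6 were chosen after their values were seen.

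**Figure D3:**
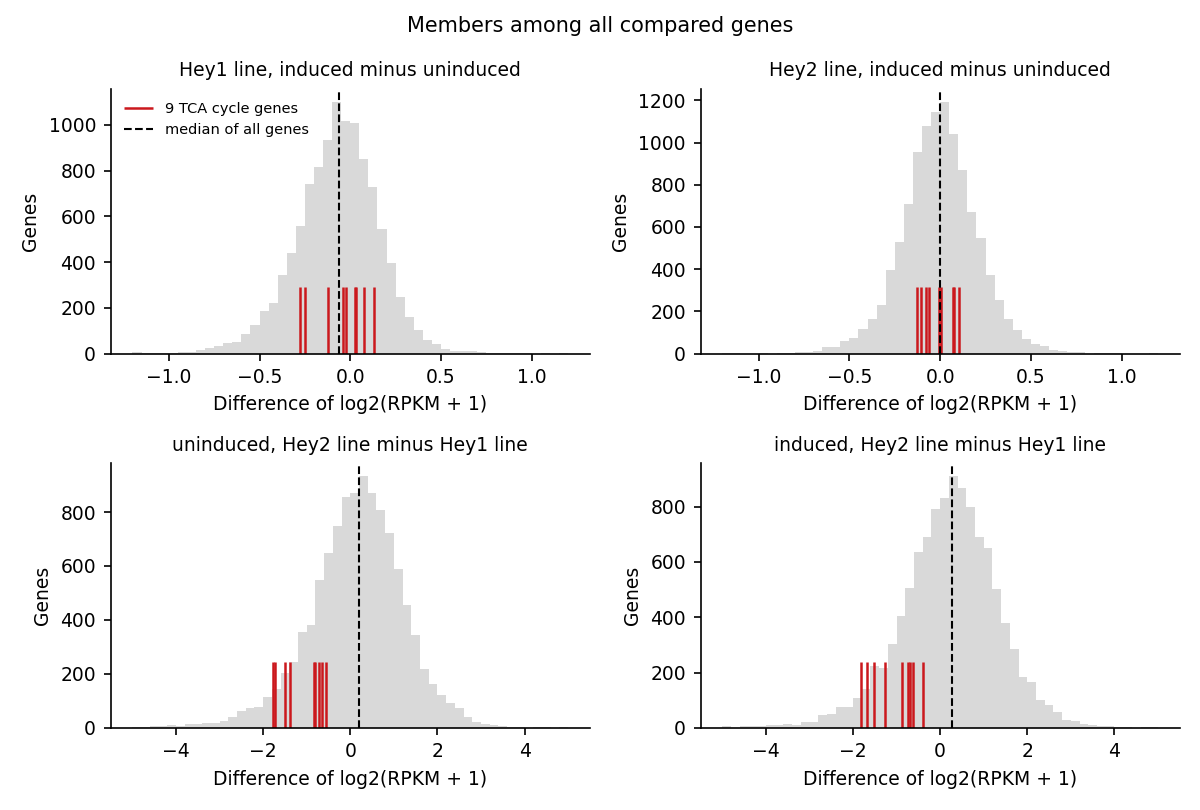
Differences of log2(RPKM + 1) of the 10991 compared genes in 4 comparisons (grey histograms, values past the axis ends counted in the end bins), with red ticks for the 9 TCA cycle genes and a dashed line for the median of all genes. The ticks lie in the middle of both induction histograms and to the left of the median in both line histograms.

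The large differences lay between the lines, in comparisons that use the same 4 libraries as the inductions. All 9 genes were lower in the Hey2 line, without induction from 1.5-fold (Sucla2) to 3.56-fold (Ogdh) and with it from 1.32-fold to 3.70-fold. On the log2(RPKM + 1) scale 8 of the 9 were lower by 1.5-fold or more in the uninduced Hey2 line, all but Sucla2 (−0.56, just inside that size), where 21.9% of all compared genes were, with 34.2% higher and 56.1% past that size either way. The same 8 were so in the induced libraries, against 21.1%, with 37% higher and 58.1% either way. Sucla2 passed too, making 9 of 9, under each of the 3 other scalings without induction and under 2 of them with it. The share of compared genes lower by 1.5-fold rose as well. It was 27.7%, 25.7% and 22.7% without induction under median ratio, upper quartile and without-top-10 scaling. With induction it was 28.8% and 26.5% under median ratio and upper quartile scaling, where 9 of 9 passed. At 2-fold the count as deposited was 4 of 9 in each state (Cs, Idh3g, Ogdh and Mdh2), against 13.1% and 12.3%. Under median ratio scaling it was 6 of 9 without induction, with Suclg1 and Fh1 added, and 7 of 9 with it, with Idh3b added too, against 16.4% and 17.4% of compared genes. The counting interval lay below 1 for all 9 in both, against 28.9% and 29.2% of compared genes. It lay above 1 for 44% and 48.1% of compared genes, and left out 1 either way for 72.9% and 77.3%. Both Hey1-line libraries lay above both Hey2-line libraries for all 9, which held for 34.6% of compared genes.

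The median difference of the 9 was −0.82 without and −0.87 with induction, whereas that of all compared genes was 0.20 and 0.27. Relative to all genes the 9 thus lay 1.02 lower (a difference of −1.02) and 1.14 lower (−1.14) on the log2 scale. Median ratio scaling takes out that shift of all genes (−0.19 and −0.27), and the medians of the 9 were then −1.06 and −1.19. With this scaling 50.6% and 51.0% of the genes past 1.5-fold were lower in the Hey2 line, in place of 39.1% and 36.4%. The direction of all 9 genes was the same under each scaling tried.

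Markers of other cell types moved with this comparison. All 10 cardiomyocyte markers were lower in the uninduced Hey2 line (median −3.66, range −4.71 to −2.31), and all 8 pluripotent cell markers were higher (median 3.03, range 0.69 to 4.57). All 4 proliferation markers were higher too (median 2.68), with a sum of 14.44 RPKM in uninduced Hey1-line and 144.8 RPKM in uninduced Hey2-line cells. The sum of the 6 fibroblast markers was 42.62 and 60.39 RPKM in these libraries, with Lum blank in the Hey1 line. Of the 5 compared, 4 were higher in the Hey2 line and 1, Postn, was lower (6.48 and 3.75 RPKM). Endothelial markers were low, with sums of 2.691 and 6.862 RPKM, and Cdh5 was blank in the Hey1 line. The 4 endoderm markers, led by Afp, summed to 69.31 and 2.842 RPKM, with Apoa1 blank in both and Alb blank in the Hey2 line. The 4 neuronal markers summed to 18.21 and 38.51 RPKM, with Dcx blank in both, but they did not move together. Tubb3 was lower in the Hey2 line (16.5 and 4.14 RPKM). Stmn2 (1.42 and 32.8 RPKM) and Map2 (0.245 and 1.58 RPKM) were higher. The part of these cell types in the cycle gene differences was not tested. In bulk RNA, fewer cells of a type and less RNA per cell cannot be told apart. The cycle genes differed by less than the cardiomyocyte markers, whose smallest fold, that of Gata4, was 5.39.

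The genes around the cycle, listed by their place in the pathway, were next. None of these 37 genes reached 1.5-fold on the log2(RPKM + 1) scale in either induction, where 2.47% (Hey1) and 1.24% (Hey2) of compared genes did. Of 8 other cycle genes, 5 were lower by 1.5-fold or more in the uninduced Hey2 line and 2 higher, with a median of −0.79. Among all compared genes 21.9% were lower by this size and 34.2% higher. The succinate dehydrogenase subunits, shared with respiratory complex II, were lower as well. Sdhb was 3.73-fold (3.18 to 4.39), Sdhc 3.06-fold (2.70 to 3.48), Sdha 1.95-fold (1.79 to 2.13) and Sdhd 1.88-fold lower (1.62 to 2.18). Dlst was 1.63-fold lower (1.47 to 1.81), while Ogdhl was 3.18-fold (2.54 to 4.02) and Suclg2 1.89-fold higher (1.49 to 2.41). The same 7 genes passed this size in the induced lines, each in the same direction, where 21.1% of compared genes were lower and 37% higher.

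**Figure D4:**
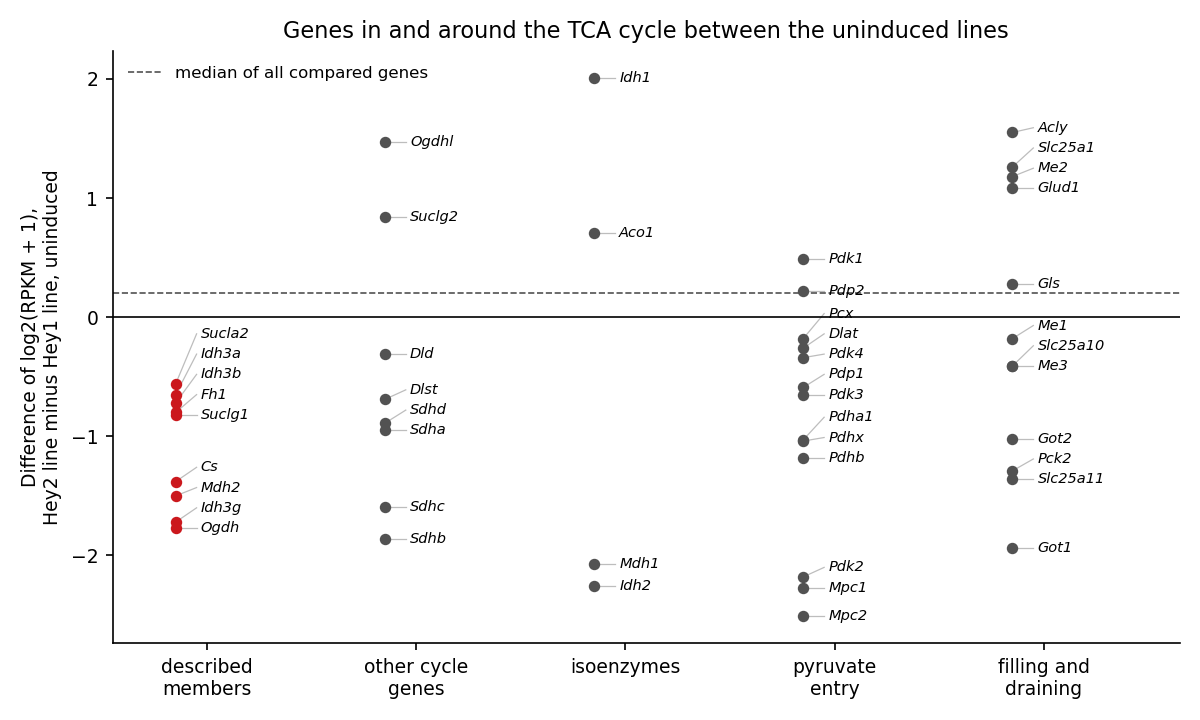
Difference of log2(RPKM + 1), uninduced Hey2 line minus uninduced Hey1 line (y axis), for the 9 members (red) and for 37 other genes in and around the cycle (grey), by group, with a dashed line at the median of all compared genes (0.20). All 9 members lie below 0, and the other groups hold genes on both sides, from Mpc2 (−2.51) to Idh1 (2.01).

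Isoenzymes outside the cycle proper differed between the lines in both directions. Of these 4 genes, 2 were lower and 2 higher by 1.5-fold or more in the uninduced Hey2 line. Among all compared genes 21.9% were lower by this size and 34.2% higher. Between the induced lines 2 were lower and 1 higher, against 21.1% and 37%. With 4 genes these counts are not read as a result about the group. Mitochondrial, NADP-linked Idh2 stood at 160 and 151 RPKM in uninduced and induced Hey1-line cells and at 32.6 and 30.2 RPKM in the Hey2 line, 4.91-fold lower without induction (4.36 to 5.55). Cytosolic Idh1 did the reverse, at 9.09 and 7.71 RPKM against 39.7 and 36.3 RPKM, 4.37-fold higher (3.67 to 5.23). Cytosolic aconitase (Aco1), which is also the iron regulatory protein, was 1.75-fold higher in the uninduced Hey2 line (1.44 to 2.12). It stood at 6.17 and 9.55 RPKM in the induced lines, under 1.5-fold on the log2(RPKM + 1) scale. Cytosolic malate dehydrogenase (Mdh1), a part of the malate-aspartate shuttle, was 4.23-fold lower (3.92 to 4.56), unlike the other cytosolic isoenzymes. Mdh1 stood at 308 and 233 RPKM in the Hey1 line, 1.32-fold lower after induction (1.26 to 1.38), and at 72.7 and 65.2 RPKM in the Hey2 line, 1.12-fold lower (1.02 to 1.22). Mdh2 over Mdh1 was thus 0.627 and 0.842 in the Hey1 line, against 0.932 and 1.03 in the Hey2 line. Idh1 after induction was 1.18-fold (0.935 to 1.49) and 1.09-fold lower (0.983 to 1.22), Idh2 1.06-fold lower in the Hey1 line (0.997 to 1.13) and Aco1 1.09-fold lower in the Hey2 line (0.928 to 1.27).

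Of 13 genes for the entry of pyruvate, 8 were lower by 1.5-fold or more in the uninduced Hey2 line and none higher. Among all compared genes 21.9% were lower by this size and 34.2% higher. Both subunits of the mitochondrial pyruvate carrier, Mpc1 and Mpc2 (listed under the older symbols Brp44l and Brp44), were far lower, Mpc2 at 52.4 and 8.35 RPKM, 6.27-fold (4.53 to 8.90), and Mpc1 at 26.1 and 4.60 RPKM, 5.67-fold (3.69 to 9.08). The pyruvate dehydrogenase subunits Pdha1, 2.07-fold (1.88 to 2.28), Pdhb, 2.35-fold (1.94 to 2.85), and Pdhx, 2.23-fold (1.74 to 2.87), were lower. The kinases that switch this complex off differed in direction. Pdk2 was 5.07-fold (4.04 to 6.43) and Pdk3 1.64-fold lower (1.28 to 2.11). Pdk1 was higher in the Hey2 line, at 13.3 and 19.1 RPKM without and 9.60 and 19.7 RPKM with induction, where it was 2.05-fold higher (1.82 to 2.31). The phosphatase gene Pdp1 was 1.85-fold lower without induction (1.25 to 2.79). Between the induced lines 7 of the 13 were lower past this size, Pdk2, Mpc2, Mpc1, Pdhx, Pdhb, Pdha1 and Pdk4, the last from 2.24 to 1.12 RPKM. Among all compared genes 21.1% were lower by this size there and 37% higher.

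In the Hey1 induction the entry genes with the largest differences were the phosphatase gene Pdp2, 1.56-fold lower (1.02 to 2.40) from only 4.64 RPKM, Pdk1, 1.38-fold lower (1.2 to 1.58), and Pdk2, 1.30-fold higher (1.17 to 1.46). Of the other cycle genes these were Suclg2, 1.25-fold lower (0.951 to 1.65), Dld, 1.22-fold lower (1.08 to 1.38), and Sdhd, 1.17-fold lower (1.04 to 1.31). In the Hey2 induction they were Pdp1, 1.36-fold higher (0.921 to 2.06), Pdp2, 1.16-fold lower (0.815 to 1.64), and Pdha1, 1.12-fold higher (1.02 to 1.24). There Sdhb was 1.17-fold higher (0.981 to 1.4), Sdhd 1.15-fold lower (0.984 to 1.35) and Suclg2 1.09-fold higher (0.907 to 1.31).

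Of 12 genes that fill or drain the cycle, 4 were lower and 4 higher by 1.5-fold or more in the uninduced Hey2 line. Among all compared genes 21.9% were lower and 34.2% higher, so the count of higher ones was near that share. The higher ones were Acly, which splits exported citrate into acetyl-CoA for lipid synthesis, at 23.8 and 71.4 RPKM, 3-fold (2.76 to 3.27), and Slc25a1, the citrate exporter, 2.60-fold (1.78 to 3.86). The malic enzyme gene Me2 was 2.45-fold (1.96 to 3.07) and glutamate dehydrogenase (Glud1) 2.18-fold higher (1.94 to 2.45). The lower ones were the aspartate aminotransferases Got1, 3.92-fold (3.50 to 4.40), and Got2, 2.05-fold (1.88 to 2.23), the alpha-ketoglutarate carrier Slc25a11, 2.66-fold (2.25 to 3.16), and mitochondrial Pck2, 2.84-fold (2.17 to 3.76). Got1, Got2 and Slc25a11 serve, with Mdh1 and Mdh2, the malate-aspartate shuttle. The same 8 genes passed this size in the induced lines, joined by the dicarboxylate carrier Slc25a10, 2.27-fold lower (1.56 to 3.33) from 2.57 RPKM. There 21.1% of all compared genes were lower by this size and 37% higher.

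Of this group the malic enzyme gene Me3 was 1.32-fold higher (0.997 to 1.74), Me2 1.25-fold lower (0.950 to 1.65) and Slc25a11 1.17-fold lower (1.04 to 1.32) in the Hey1 induction. In the Hey2 induction Slc25a11 was 1.46-fold lower (1.19 to 1.78), at 16.8 and 11.5 RPKM, Me3 1.29-fold higher (0.914 to 1.85) and Slc25a1 1.19-fold higher (0.912 to 1.55). As deposited, the intervals of Slc25a11 and Mdh1, and of no other gene of the 37, lay below 1 in both inductions. The interval lay below 1 for 13.5% of all compared genes in the Hey1 and 6.63% in the Hey2 induction. The share below 1 in both was not counted, nor were these intervals under other scalings. No result about these genes is therefore read from it.

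**Figure D5:**
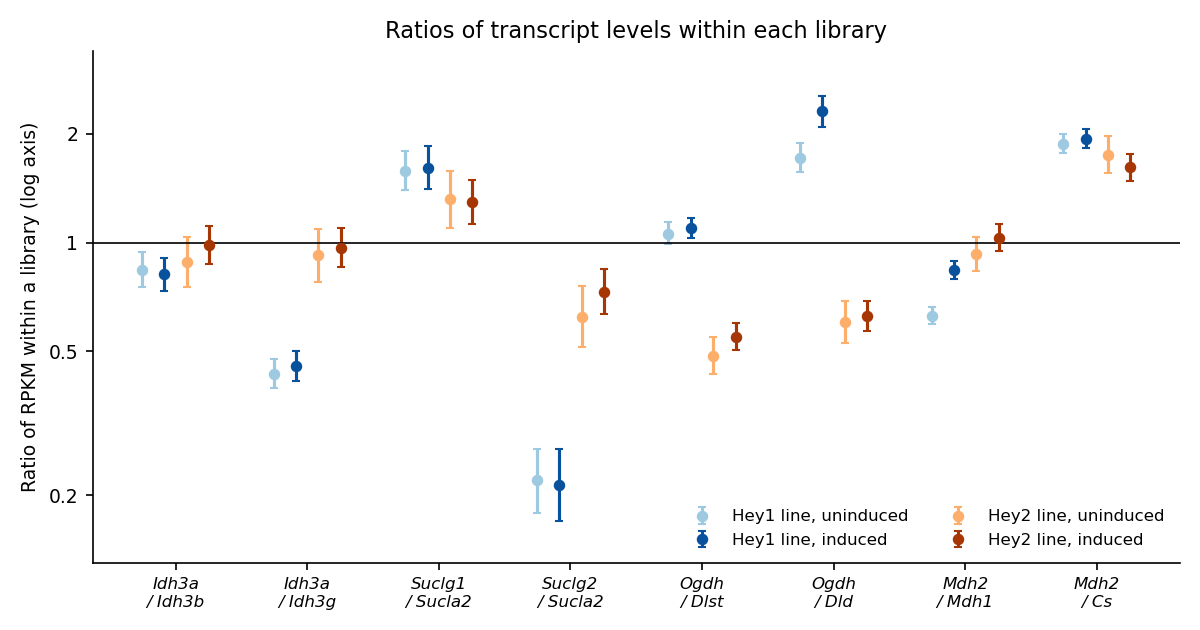
Ratios of RPKM between pairs of genes within each of the 4 libraries, on a log y axis, with exact 95% intervals of counting error. Idh3a over Idh3g (0.434 and 0.456 against 0.923 and 0.967), Suclg2 over Sucla2 and Ogdh over Dlst separate the lines. Idh3a over Idh3b and Mdh2 over Cs differ less. Between the uninduced lines they differ within counting error. Between the induced lines each differs by 1.2-fold (1.03 to 1.41 and 1.08 to 1.34).

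Within the 9 genes a few proportions were close in all libraries. Mdh2 was 1.88, 1.94, 1.75 and 1.62 times Cs in uninduced and induced Hey1-line and uninduced and induced Hey2-line cells. This ratio was 1.07-fold lower in the Hey2 line without induction (0.939 to 1.23) and 1.2-fold lower with it (1.08 to 1.34). Suclg1 was 1.58, 1.61, 1.32 and 1.30 times Sucla2. That ratio was 1.2-fold lower in the uninduced Hey2 line (0.966 to 1.48) and 1.24-fold lower in the induced one (1.03 to 1.5).

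Genes with the most similar pattern were sought as the smallest Euclidean distance of centred log2(RPKM + 1) to the mean profile of the 9 genes over the 4 libraries. That mean profile was 0.57, 0.52, −0.54 and −0.55. The 5 nearest genes were Bsg (basigin, a partner of lactate transporters, distance 0.014), March2 (a ubiquitin ligase, 0.015), Atp6v0b (a proton pump subunit, 0.030), Cacna1g (a T-type calcium channel, 0.037) and Cox10 (an assembly factor of cytochrome oxidase, 0.040). With 4 libraries that fall into 2 lines the pattern is common. Of 10982 other compared genes, 1173 lay nearer to the mean profile than the median member and 2467 nearer than the farthest member, Ogdh (0.729).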

How the data were processed

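Gene-level values of 4 RNA-seq libraries were used, and 8 chromatin immunoprecipitation samples were not analysed here. The authors deposited RPKM values and also a fold score per line, per the file headers, and from the values that score is the signed ratio of the line's RPKM columns. It was not used. Build mm9, Bowtie 1.0, DESeq (no version given) and MACS 1.4.1 are named without a role, per the submitters' processing notes. Counter, annotation and strand setting: not given in the sources used here, so genes with near-identical copies, overlapping or antisense genes are uncertain.

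Whole reads were recovered from the RPKM steps, at the smallest whole-base length (up to 25000) that gave whole reads in every listed library within 3e-06 reads, or 3e-06 per 1000 reads above 1000. This succeeded for 15363 of 15371 genes with a value (99.9%), and for 11.8% of a sample with 1 depth wrong by 1%. A multiple of that length would give whole reads too, so read numbers rest on the smallest length. For 634 genes a longer multiple was taken, keeping every read number at or above 10 (Hey1 line) or 5 (Hey2 line). The recovered depths (M reads) were 7.4 for Hey1 uninduced, 7.5 for Hey1 induced, 5.75 for Hey2 uninduced and 10.375 for Hey2 induced. Other depths also gave whole reads for 100% of a sample of genes, such as 14.8 and 7.5 (Hey1 line) or 11.5 and 20.75 (Hey2 line). The depths used had the lowest imbalance in how often small primes divided the recovered numbers. All counting intervals rest on this choice. Blank cells were not read as 0.

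Differences are of log2(RPKM + 1), a scale that understates changes at low values, and folds are of RPKM. Fold intervals are exact conditional binomial and level intervals exact Poisson, at 95%. Intervals of ratios between lines and of ratios of folds use a normal approximation on the log scale. All cover counting error only, since each group is 1 library. PCR copies are not independent reads, so where they are present the intervals are too narrow. Compared genes (10991) had 4 values and a mean of at least 1 RPKM, with 6 exact copies left out. The size rule was 1.5-fold on the log2(RPKM + 1) scale, set beside the share of all compared genes past it. Of the listed genes, 8 were matched by Entrez identifier. Genes named beyond the 9 were, per group of the pathway list and comparison, the 3 with the largest difference and any past 1.5-fold, and the 5 nearest in pattern. Others are said where they appear. A gene of the pathway list is not reported here. Members, lists, rules and motifs were chosen with earlier results of these data known. The scripts were tested on simulated data. Alternatives were other pseudocounts, scalings, filters and sizes. Work was done in pandas 2.3.3, SciPy 1.17.1, NumPy 2.4.6 and Matplotlib 3.10.9 under Python 3.11.15.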

Additional observations from a re-analysis of the deposited data

Results flagged for a closer look

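Cs, Idh3b, Idh3g and Mdh2 had values on opposite sides of no difference in the 2 inductions, each with 1 library a side. As deposited, each of these folds was within counting error of no difference, so no direction is read from them. The share of all compared genes with opposite signs was not counted, and this was not tested across replicates. The difference of log2(RPKM + 1) changes, Hey2 minus Hey1, was 0.13 for Cs, −0.16 for Idh3b, 0.04 for Idh3g and −0.03 for Mdh2. The counting interval of the ratio of folds held 1 for all 4, from 0.977 to 1.23 for Cs and from 0.741 to 1.08 for Idh3b. Under median ratio scaling Cs and Idh3g were higher in the Hey1 induction as well.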

How the results depend on the processing

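The 9 genes kept their direction between lines in every alternative tried, and 147 of 180 alternative values of single genes stayed within the counting interval. The other 33 moved further, all under median ratio or upper quartile scaling. The median difference between lines was −0.82 without and −0.87 with induction as deposited. It was −1.06 and −1.19 under median ratio scaling and −1.10 with induction under upper quartile scaling. These scalings divide the Hey2-line libraries by more, with factors of 1.11 and 1.10 against 0.935 and 0.878 for median ratio. With 2-fold as the size 4 genes passed in either state in place of 8, which follows from the larger size. Combined with another scaling, an alternative added after the data were seen, this count was 6, 4 and 4 without and 7, 5 and 4 with induction under median ratio, upper quartile and without-top-10 scaling. Of all compared genes 16.4%, 15.3% and 13.4% were lower by 2-fold without induction under these scalings. With induction 17.4%, 15.8% and 13.6% were. The share of compared genes past 1.5-fold was 2.10% under median ratio scaling for the Hey1 induction, in place of 2.47%, and 1.03% where the mean had to reach 5 RPKM for the Hey2 induction, in place of 1.24%. Between the uninduced lines it was 53.8% without the filter on the mean, 61.5% where it had to reach 5 RPKM and 54.7% under median ratio scaling, in place of 56.1%. Between the induced lines it was 55.7%, 62.7% and 56.4%, in place of 58.1%. Keeping exact copies was also added then and moved no share beyond its binomial interval. The number of members past 1.5-fold in an induction was 0 in every alternative. Depth limits what can be seen, since the fewest reads behind a member's value were 225. No paired analysis was possible because the labels give no replicate numbers and each group is 1 library.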
